A study of Mus musculus with 2 samples.

Results

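Mitochondrial ribosomal protein genes were compared between 1 sample of mouse embryonic stem cells carrying EWS-OCT4A-GFP and 1 control sample carrying GFP. The members were taken by name, as every gene whose platform symbol is Mrpl or Mrps followed by digits and an optional letter and which has a probe set with that symbol alone. This gave 80 probe sets for 71 genes, out of 22180 genes measured, and the probe set with the higher mean of both samples stood for a gene. The EWS-OCT4A-GFP sample is a stable line derived from Niwa embryonic stem cells that expresses a fusion of the EWS protein with the OCT4A isoform of OCT4, tagged with GFP. The GFP sample is a stable line of the same parental cells with GFP alone. Both were grown with LIF and both were treated with doxycycline (1 µg/ml) to lower their own OCT4, so the control cells carry that treatment too. The sources used here do not give the promoter of the transgenes, the length of the doxycycline treatment or whether a line is 1 clone. The series title names Fgf4 as a target of the fusion.

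Mitochondria keep their own ribosome, which translates the few proteins encoded in mitochondrial DNA, all of them membrane subunits of the respiratory chain and ATP synthase. Its ribosomal RNAs come from mitochondrial DNA, whereas all its proteins are encoded in the nucleus, made by cytosolic ribosomes and imported. Many of these proteins descend from bacterial ribosomal proteins and others are found in mitochondrial ribosomes but not in bacterial ones. In pluripotent stem cells mitochondria are known to be small and immature, and glycolysis supplies much of the energy.

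The values are log2 signals with 1 sample per line, so no difference below has an error estimate or a test, and "higher" and "lower" describe these 2 samples. Counts past a fold threshold were taken among genes whose higher value reached 4.10, the median over both columns of the table, called the floor below. Of the 71 members, 70 reached it, and the exception was Mrps36. The 2 samples differed strongly in the markers of the cell types involved. All 8 embryonic stem cell markers examined read higher in the EWS-OCT4A-GFP sample, with a median of 9.12 there and 5.23 with GFP alone, and all 8 trophectoderm markers read lower, with medians of 4.98 with EWS-OCT4A-GFP and 9.31 with GFP alone. Sox2 read 9.87 with EWS-OCT4A-GFP and 5.50 with GFP alone, whereas Krt18, an epithelial keratin of trophectoderm, read 4.35 with EWS-OCT4A-GFP and 10.7 with GFP alone. Cdx2 differed least of the trophectoderm markers, with 5.535 with EWS-OCT4A-GFP and 6.09 with GFP alone. The markers of the labelled cell type thus stood higher in the EWS-OCT4A-GFP sample than in the GFP sample, although Dppa5a was under the floor defined above in both, with 3.81 with EWS-OCT4A-GFP and 2.89 with GFP alone. Of 8 fibroblast markers, which would report feeder cells, 7 differed by less than 2-fold, and Postn read 2.02 with EWS-OCT4A-GFP and 6.06 with GFP alone. The marker differences come from the same 2 samples as every result below, and their part in those results was not tested. In such bulk samples, fewer cells of a type and less RNA per cell cannot be told apart.

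Most mitochondrial ribosomal protein genes read somewhat higher in the EWS-OCT4A-GFP sample, and none was much lower. The members had a median of 6.73 with EWS-OCT4A-GFP and 6.22 with GFP alone. Their median difference was 0.33 on the log2 scale, or 1.26-fold, beside 0.00 over all 22180 genes and 0.03 over the 13516 that reached the floor. A difference above 0 was seen in 56 of the 71 genes, 13 had one below 0, and Mrpl57 and Mrps26 read the same in both samples. The share above 0 was 78.9%, beside 49.6% of all genes and 51.2% of those that reached the floor. The middle 50% of the members ran from 0.13 to 0.77, beside -0.31 to 0.34 for all genes.

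The size of the differences was moderate. Of the 70 members at or above the floor, 7 were at least 2-fold higher, which is near the background of 9.31% of all genes that reached the floor. By contrast 0 of the 70 were at least 2-fold lower, beside 11.9% of all genes. At a threshold of 1.5-fold, 25 members (35.7%) were higher, beside 20.0% of all genes, and 0 were lower, beside 20.6%. Ranked among the genes at or above the floor, 29 of the 71 members had a difference in the highest 25% and 0 in the lowest 25%. At 2-fold the members' counts thus differed from those of all genes on the lower side and hardly on the higher side.

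**Figure D1:**
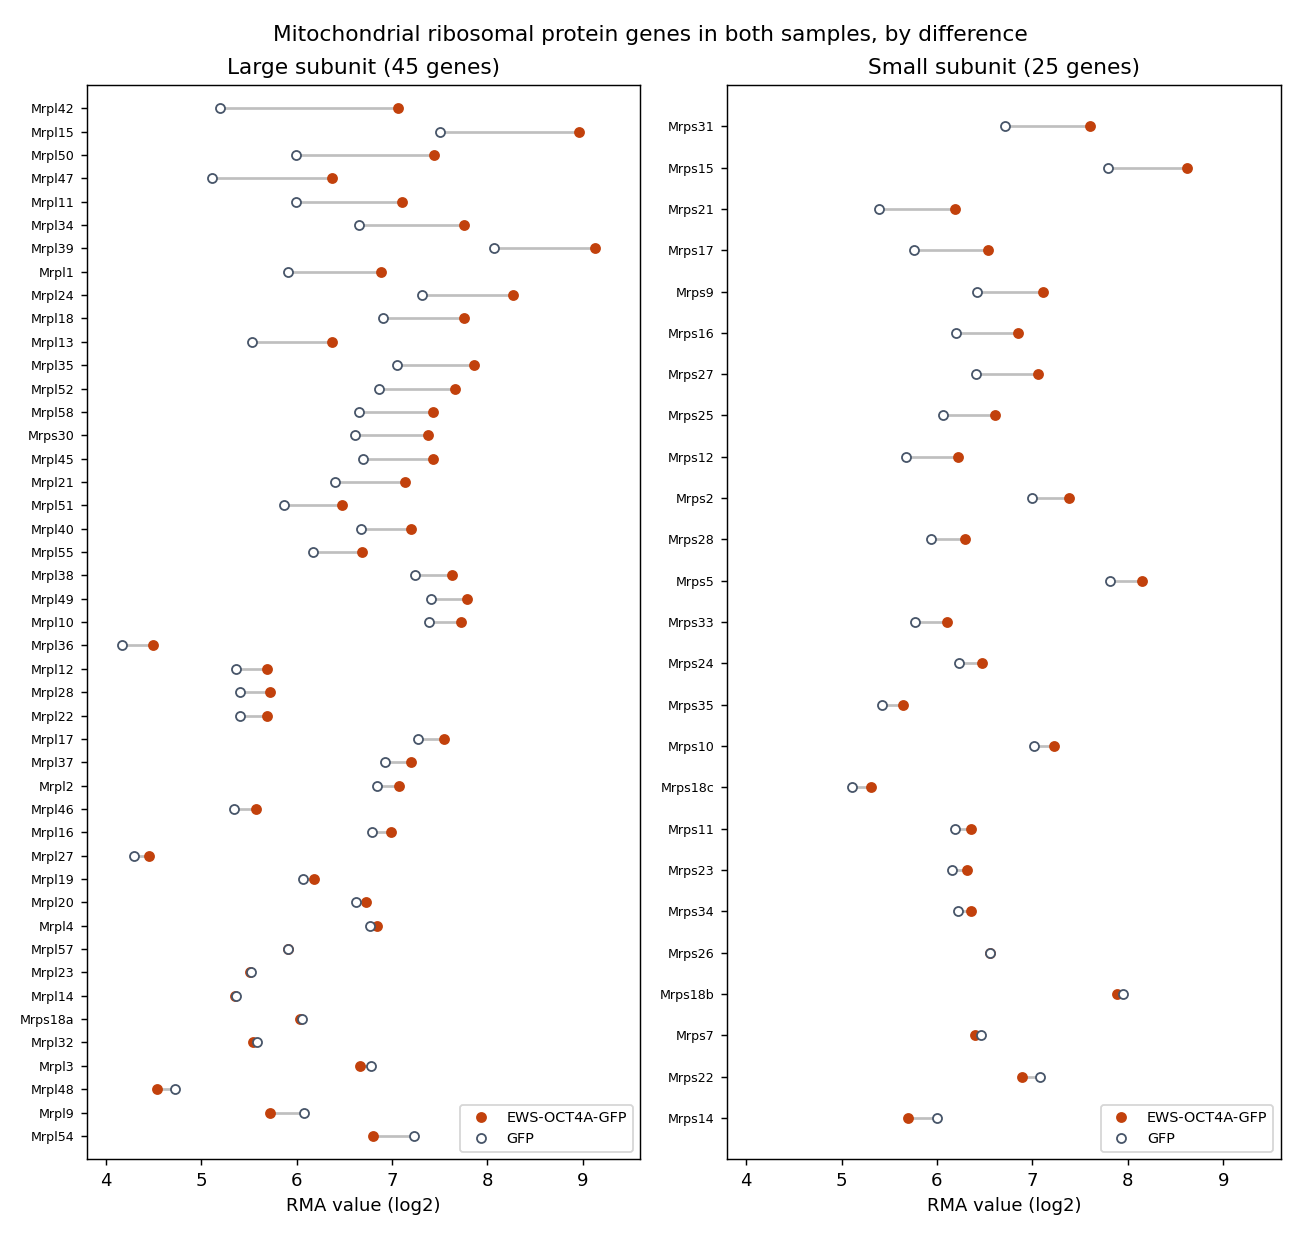
Log2 RMA values of 45 large-subunit and 25 small-subunit genes, ordered by difference, with filled points for the EWS-OCT4A-GFP sample and open points for the GFP sample (1 sample each, no error bars; Mrps36 not shown). In 36 of the 45 large-subunit genes and 20 of the 25 small-subunit genes the filled point lies to the right.

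Other genes of similar level were split about evenly around 0. Among 3146 other genes with mean levels in the range of the middle 50% of the members, 50.9% had a difference above 0, and the median difference was 0.02. Of these, 341 lay past 2-fold on the higher side and more, 488, on the lower. Among the 35 members in the same range, 29 had a difference above 0, with a median of 0.52. Within the members, the difference was weakly related to the mean level (Pearson's r = 0.34, Spearman's rho = 0.38, across 71 genes from the same pair of arrays, which are not independent replicates). Over all genes that reached the floor r was -0.02. RMA compresses differences of weakly hybridizing probe sets, and its part in the members' relation to level was not tested.

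**Figure D2:**
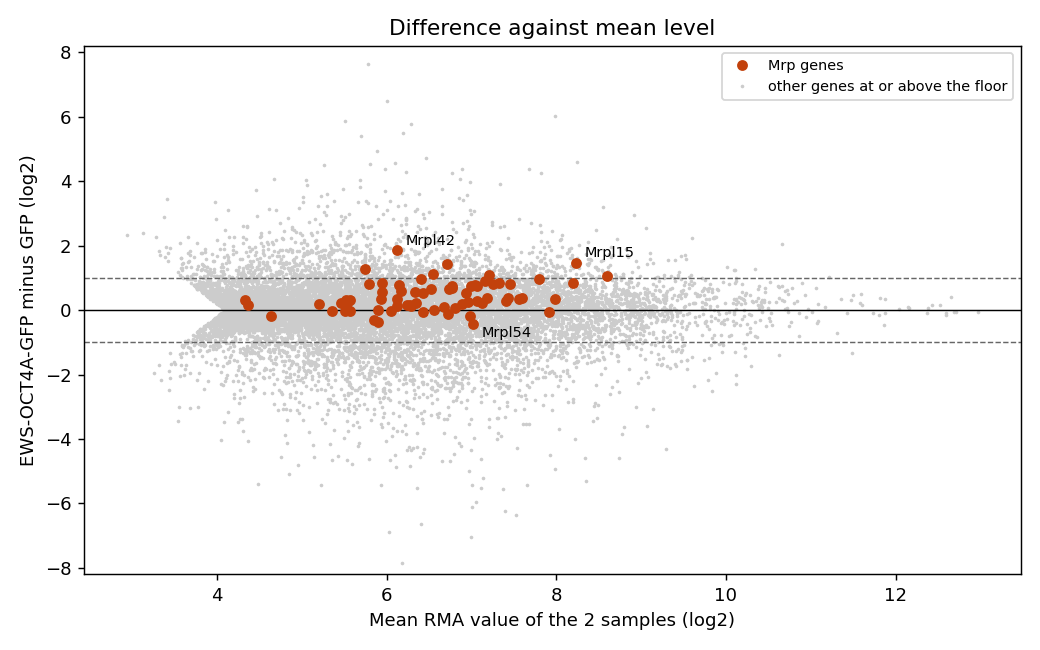
Difference (EWS-OCT4A-GFP minus GFP, log2) against the mean of both samples (log2 RMA value) for 70 Mrp genes and the other genes at or above the floor, with dashed lines at 2-fold. The Mrp genes lie between -0.43 (Mrpl54) and 1.86 (Mrpl42), while other genes spread to -7.84 and 7.65.

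The large subunit, which joins amino acids into the nascent chain, held every member that was at least 2-fold higher, 7 of 45 (15.6%), beside the background of 9.31%. The contrast with the small subunit was not tested. Its 45 measured genes had a median of 6.89 with EWS-OCT4A-GFP and 6.40 with GFP alone, and 36 read higher, 8 lower and 1 the same. Mrpl42, which encodes a protein of the mitochondrial but not the bacterial ribosome, read 7.06 with EWS-OCT4A-GFP and 5.19 with GFP alone, a difference of 1.86 or 3.64-fold. It was the only member past 3-fold. Mrpl15, a counterpart of bacterial L15, read 8.96 with EWS-OCT4A-GFP and 7.50 with GFP alone (2.75-fold). Mrpl50, another protein without a bacterial counterpart, read 7.44 with EWS-OCT4A-GFP and 5.99 with GFP alone (2.72-fold). These 3 genes stood highest in the order of differences.

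Mrpl47, which encodes the counterpart of bacterial L29 beside the tunnel where the nascent chain leaves, read 6.37 with EWS-OCT4A-GFP and 5.11 with GFP alone, a difference of 1.26. Its other probe set read 4.07 with EWS-OCT4A-GFP and 2.69 with GFP alone, a difference of 1.38, with both values under the floor. A further probe set that also carries the symbol Actl6a read 7.46 with EWS-OCT4A-GFP and 6.88 with GFP alone, a smaller difference of 0.59, and it was left out because it names a second gene. Mrpl11, whose protein sits at the base of the stalk that recruits translation factors, read 7.11 with EWS-OCT4A-GFP and 5.99 with GFP alone (1.11). Mrpl34 read 7.75 with EWS-OCT4A-GFP and 6.65 with GFP alone (2.14-fold). Mrpl39, a protein of the exit side, read 9.13 with EWS-OCT4A-GFP and 8.07 with GFP alone (1.06). With Mrpl42, Mrpl15 and Mrpl50 these made up the 7 genes past 2-fold.

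Just under 2-fold stood Mrpl1, whose bacterial counterpart forms the stalk on the side where tRNAs leave, with 6.89 with EWS-OCT4A-GFP and 5.91 with GFP alone. Mrpl24 read 8.27 with EWS-OCT4A-GFP and 7.32 with GFP alone. Mrpl18 (difference 0.85), Mrpl13 (0.84), Mrpl35 (0.81), Mrpl52 (0.80), Mrpl21 (0.74) and Mrpl45 (0.74) followed, the last a protein known in human mitochondria to anchor the ribosome to the inner membrane. Mrpl58, a peptidyl-tRNA hydrolase related to bacterial release factors and built into the large subunit, read 7.43 with EWS-OCT4A-GFP and 6.65 with GFP alone (0.78). Mrps30, a protein of the large subunit in spite of its symbol, read 7.37 with EWS-OCT4A-GFP and 6.61 with GFP alone (0.76). Mrpl51 (0.61) was the last large-subunit gene past 1.5-fold, which brought the count in this subunit to 18 of 45 (40%, beside 20.0% of all genes). Mrpl40 (0.53) and Mrpl55 (0.52) came next.

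At the other end of the large subunit, Mrpl54 read 6.80 with EWS-OCT4A-GFP and 7.23 with GFP alone, a difference of -0.43, the most negative of all members. Mrpl9, the counterpart of bacterial L9, read 5.72 with EWS-OCT4A-GFP and 6.08 with GFP alone (-0.35). Mrpl48 read 4.54 with EWS-OCT4A-GFP and 4.73 with GFP alone (-0.19), and Mrpl3, whose bacterial counterpart reaches towards the catalytic centre, read 6.67 with EWS-OCT4A-GFP and 6.78 with GFP alone (-0.11). Mrpl32 (-0.04), Mrps18a (-0.02), Mrpl14 (-0.02) and Mrpl23 (-0.01) read almost the same in both samples. Besides Mrpl40 and Mrpl55, another 16 large-subunit genes lay between these ends, with differences above 0 and under 1.5-fold. They ran from Mrpl38 (0.39), Mrpl49 (0.37), Mrpl10 (0.33), Mrpl36 (0.33), Mrpl12 (0.32) and Mrpl28 (0.31) through Mrpl22, Mrpl17, Mrpl37, Mrpl2, Mrpl46, Mrpl16 and Mrpl27 to Mrpl19 (0.12), Mrpl20 (0.11) and Mrpl4 (0.08).

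Grouped by place in the large subunit, the genes of the polypeptide exit site had the highest median. Of its 8 listed genes 7 were measured, 6 of them above 0, and the median difference was 0.74, with the extremes Mrpl47 (1.26) and Mrpl23 (5.51 with EWS-OCT4A-GFP and 5.52 with GFP alone). The 7 genes of the central protuberance, the crest that faces the small subunit, had a median of 0.39, running from Mrpl48 to Mrpl18, which read 7.75 with EWS-OCT4A-GFP and 6.90 with GFP alone. The 4 measured genes of the L7/L12 stalk and its base had a median of 0.33 and held both Mrpl11 (1.11) and Mrpl54 (-0.43). Mrpl12, the stalk protein itself, read 5.69 with EWS-OCT4A-GFP and 5.36 with GFP alone, and its other probe set differed by 0.30. With so few genes per group and no replicates, these medians are given as a description.

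The small subunit, which binds the mRNA and decodes it, had a median difference of 0.33, as the large one did. Of its 25 genes 0 were past 2-fold higher, beside 9.31% of all genes that reached the floor. Among genes whose higher log2 value was at least 6 the medians were 0.35 for the small and 0.67 for the large subunit. This filter also keeps genes that reached 6 in only 1 sample. Mrpl47 and Mrpl11 did so only with EWS-OCT4A-GFP, and Mrpl9 only with GFP alone. Medians under it are thus not independent of the differences, and the difference between the subunits was not tested. The 25 measured genes of the small subunit had a median of 6.53 with EWS-OCT4A-GFP and 6.22 with GFP alone. Of them, 20 read higher, 4 lower and 1 the same. Mrps31 read 7.60 with EWS-OCT4A-GFP and 6.71 with GFP alone, the largest difference of this subunit (0.89). Mrps15 read 8.62 with EWS-OCT4A-GFP and 7.79 with GFP alone (0.83), and Mrps21 read 6.19 with EWS-OCT4A-GFP and 5.39 with GFP alone (0.80). Mrps17 (0.78), Mrps9 (0.70), Mrps16 (0.65) and Mrps27 (0.65), a protein with pentatricopeptide repeats, completed the 7 genes past 1.5-fold higher. That is 28% of the 25, beside 20.0% of all genes that reached the floor. Mrps12, the counterpart of the bacterial protein that lines the decoding centre, read 6.22 with EWS-OCT4A-GFP and 5.67 with GFP alone (0.55), and Mrps25 also differed by 0.55.

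Mrps14 was the lowest of the small subunit, with 5.70 with EWS-OCT4A-GFP and 5.997 with GFP alone (-0.30). Mrps22, which has no bacterial counterpart, read 6.89 with EWS-OCT4A-GFP and 7.08 with GFP alone (-0.19), and Mrps7, an assembly-initiating protein in bacteria, read 6.40 with EWS-OCT4A-GFP and 6.47 with GFP alone (-0.07). The 3 paralogs of bacterial S18 were close to level. Mrps18a, which sits in the large subunit, read 6.04 with EWS-OCT4A-GFP and 6.06 with GFP alone, Mrps18b read 7.89 with EWS-OCT4A-GFP and 7.95 with GFP alone, and Mrps18c read 5.31 with EWS-OCT4A-GFP and 5.11 with GFP alone. The other 10 small-subunit genes above 0 were Mrps2 (0.39), Mrps28 (0.36), Mrps5, Mrps33 (0.33), Mrps24 (0.23), Mrps35 (0.22), Mrps10 (0.21), Mrps11 (0.16), Mrps23 (0.16) and Mrps34 (0.13), and Mrps5 among them read 8.15 with EWS-OCT4A-GFP and 7.82 with GFP alone. The 1 member in neither subunit was Mrps36, which was first taken for a ribosomal protein and is now known as a subunit of the 2-oxoglutarate dehydrogenase complex. It read 3.51 with EWS-OCT4A-GFP and 3.59 with GFP alone, both under the floor.

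By origin, the 45 genes whose proteins have a bacterial counterpart had a median difference of 0.32, with 36 above 0 and 4 past 2-fold (8.89%). The 25 genes whose proteins are particular to mitochondrial ribosomes had a median of 0.39, with 20 above 0 and 3 past 2-fold (12%). Both shares are near the background of 9.31%. Among genes whose higher log2 value was at least 6 the medians were 0.39 for genes with a bacterial counterpart and 0.55 for the others. That filter is not independent of the differences. Of 13 listed genes in which mutations cause mitochondrial disease in human, 12 were measured. Their median was 0.24, with 8 above 0 and 2 past 1.5-fold, Mrpl24 (0.95) and Mrps16 (0.65). That share of 16.7% is near the 20.0% of all genes, and the list of disease genes may not be complete.

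For 9 members the array has 2 probe sets. In 6 of them both probe sets differed in the same direction with values above 0, in Mrps18b both were below 0 (-0.06 and -0.39), and in Mrpl10 and Mrps18c the dimmer probe set was slightly below 0 (-0.10 and -0.06) while the brighter was above (0.33 and 0.20). Mrps17 differed by 0.78 in the brighter and 0.14 in the dimmer probe set. Beyond the members, 13 probe sets carry an Mrp symbol together with a second gene, and these include all 7 listed subunit genes not counted here, Mrpl30, Mrpl33, Mrpl41, Mrpl43, Mrpl44, Mrpl53 and Mrps6. Their differences ran from -0.39 to 0.94 with 1 exception, the probe set shared by Mrps6 and the inositol transporter gene Slc5a3, which read 6.61 with EWS-OCT4A-GFP and 8.35 with GFP alone (-1.74). Which of the 2 genes that value belongs to cannot be told from the array. A shared probe set differed more than the one used for Mrpl19 (0.905 with Gcfc2, beside 0.12) and Mrps34 (0.45 with Nme3, beside 0.13). It differed less for Mrps27 (0.47, beside 0.645) and Mrpl47 (0.59, beside 1.26).

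The start sites of the members were searched for sequence features that the selection by name did not use. RefSeq windows of assembly GRCm38.p6, from 250 bases before to 50 bases after a gene's start, were found for 62 of the 71 members (68 windows). The windows were read on both strands for NRF1 (GCGCANGCG), an ETS core bound by GABPA (CCGGAAG) and YY1 (AAGATGGC), all known regulators of nuclear genes for mitochondrial proteins, and for 5 more motifs. The ETS core was found in 33.8% of the members' windows, beside 16.1% of windows of genes that reached the floor and 8.86% of all windows. NRF1 matched 20.6%, beside 12.2% and 6.25%, and YY1 matched 17.6%, beside 4.03% and 2.75%. The MYC E-box CACGTG (10.3% beside 9.98% and 7.15%), the CCAAT box (39.7% beside 37.2% and 37.4%) and TATAAA (7.35% beside 7.53% and 13.6%) were about as frequent as in windows of genes that reached the floor, and the Sp1 core GGGCGG was less frequent (54.4% beside 60.6%, with 35.7% of all windows). Related families held these motifs too. NRF1 matched 27.1% of 70 windows of oxidative phosphorylation subunits and 15.4% of 52 windows of cytosolic ribosomal proteins, the ETS core 24.3% and 38.5%, and YY1 12.9% and 5.77%. A match is a description of the letters and not a site of binding.

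A further motif, ACTACANNT, part of the sequence bound by ZNF143, was added after the windows of the extreme members had been read, so its count is not independent of their differences. It matched 7 windows (10.3%, beside 5.21% and 4.16%, with 10% for oxidative phosphorylation and 9.62% for cytosolic ribosomal proteins), those of Mrpl42, Mrpl50, Mrpl34, Mrpl24, Mrps9, Mrps22 and Mrpl48. The stretches below run from 170 bases before to 30 bases after the start of chosen genes. Matches to NRF1, the ETS core, YY1 and ZNF143 are in capitals. Among the printed stretches, NRF1, the ETS core and ZNF143 are marked at genes that read higher and at genes that did not, and YY1 only at Mrps7. The genes shown were chosen among those that hold a match. The windows of Mrpl47, Mrpl11 and Mrps14, which lie at the ends of the differences, hold none of these 4 motifs. The first 4 stretches belong to genes past 2-fold, and the last 3 to genes with a difference below 0. Of the last 3, Mrps7 (-0.07) was nearly level. Mrpl48 (-0.19) and Mrpl3 (-0.11), which also hold a match, are not shown. In Mrpl42 and Mrpl50 the capitals mark ZNF143, in Mrpl34 they mark ZNF143, an ETS core right after it and a further ZNF143 match, and in Mrpl39 and Mrpl9 NRF1, which matches there on both strands. In Mrps7 they mark YY1, and in Mrps22 ZNF143 followed by the ETS core.
Mrpl42: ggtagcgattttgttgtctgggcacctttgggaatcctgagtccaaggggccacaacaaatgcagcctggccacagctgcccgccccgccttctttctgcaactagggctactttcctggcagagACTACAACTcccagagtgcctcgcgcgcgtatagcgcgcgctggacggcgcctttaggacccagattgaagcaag
Mrpl50: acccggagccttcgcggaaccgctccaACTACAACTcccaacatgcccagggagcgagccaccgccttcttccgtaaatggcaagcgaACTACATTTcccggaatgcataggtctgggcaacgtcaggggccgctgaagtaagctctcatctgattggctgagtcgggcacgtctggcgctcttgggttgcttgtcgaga
Mrpl34: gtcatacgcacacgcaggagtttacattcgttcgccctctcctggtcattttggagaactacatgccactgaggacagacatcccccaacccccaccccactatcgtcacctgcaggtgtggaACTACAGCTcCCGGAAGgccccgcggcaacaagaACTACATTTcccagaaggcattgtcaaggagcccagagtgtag
Mrpl39: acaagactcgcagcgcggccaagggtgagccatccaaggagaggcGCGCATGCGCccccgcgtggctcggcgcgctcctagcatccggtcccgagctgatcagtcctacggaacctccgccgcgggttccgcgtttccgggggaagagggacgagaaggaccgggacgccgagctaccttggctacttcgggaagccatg
Mrps7: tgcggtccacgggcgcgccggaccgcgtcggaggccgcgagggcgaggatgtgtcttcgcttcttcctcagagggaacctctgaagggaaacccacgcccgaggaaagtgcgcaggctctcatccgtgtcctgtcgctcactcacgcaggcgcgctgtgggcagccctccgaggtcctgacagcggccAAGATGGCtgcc
Mrps22: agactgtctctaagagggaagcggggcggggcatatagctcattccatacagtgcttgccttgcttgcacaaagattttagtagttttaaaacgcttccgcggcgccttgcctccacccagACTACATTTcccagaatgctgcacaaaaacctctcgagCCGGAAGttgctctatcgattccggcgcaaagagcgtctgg
Mrpl9: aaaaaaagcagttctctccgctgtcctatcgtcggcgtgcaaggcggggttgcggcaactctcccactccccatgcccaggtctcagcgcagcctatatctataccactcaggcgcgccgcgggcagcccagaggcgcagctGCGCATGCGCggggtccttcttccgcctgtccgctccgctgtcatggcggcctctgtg
They lie, in GRCm38.p6, at chr10:95501920-95502119 on the minus strand for Mrpl42, chr4:49521054-49521253 on the minus strand for Mrpl50, chr8:71464756-71464955 on the plus strand for Mrpl34, chr16:84735215-84735414 on the minus strand for Mrpl39, chr11:115603970-115604169 on the plus strand for Mrps7, chr9:98601650-98601849 on the minus strand for Mrps22 and chr3:94443166-94443365 on the plus strand for Mrpl9. In the members' windows the ETS core overlapped Sp1 in 2 windows, and no other pair of the 8 motifs overlapped. The full window of Mrpl42 also holds a YY1 match, which lies outside the printed stretch.

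Among the members, genes with such a motif did not have a higher median difference than genes without one. The 41 genes with a match to NRF1, the ETS core, YY1 or ZNF143 had a median difference of 0.33 and the 21 genes without one had 0.39, and 9 and 3 of them were below 0. The 14 genes with NRF1 had a median of 0.28 and ran from -0.35 (Mrpl9) to 1.06 (Mrpl39). The 23 genes with the ETS core had a median of 0.29 and the 12 with YY1 one of 0.30. In other genes that reached the floor the order was the opposite but the medians lay close together, at 0.06 with NRF1 and 0.02 without, 0.08 with the ETS core and 0.00 without, and 0.10 with YY1 and 0.02 without. The 7 genes with ZNF143 had a median of 0.95, but the motif was picked out from such windows, and among other genes that reached the floor the 640 with it had a median of 0.13, beside 0.01 for the 9851 without it. Genes without the Sp1 core had a higher median (0.60, 30 genes) than genes with it (0.25, 32 genes), and this order was also seen in other genes, at 0.09 without it and -0.02 with it. Genes with a CCAAT box had a median of 0.55 (24 genes) and those without it 0.33 (38 genes), and in other genes these were 0.07 and -0.01.

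**Figure D3:**
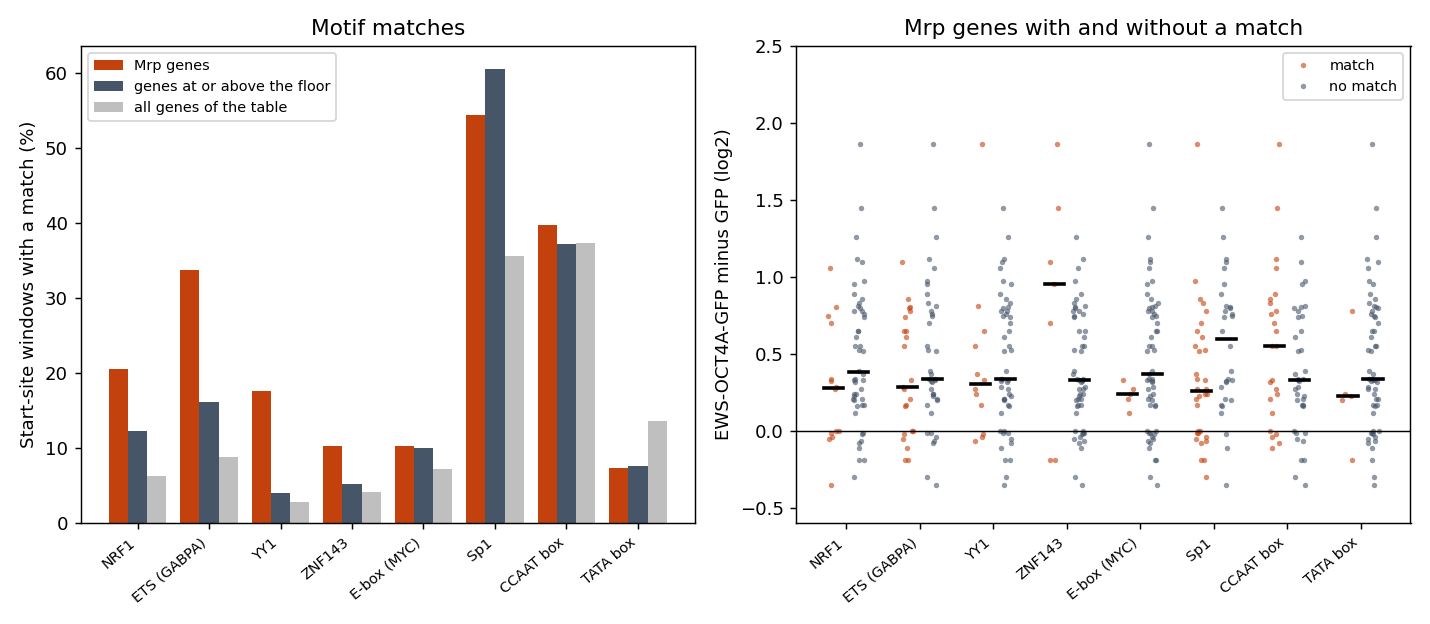
Left, percent of start-site windows with a match to each of 8 motifs, for the members, for genes at or above the floor and for all genes of the promoter table. Right, differences (EWS-OCT4A-GFP minus GFP, log2) of 62 Mrp genes with and without each match, with bars at the medians, where genes with NRF1 run up to 1.06 and genes with the ETS core up to 1.098, while genes without either reach 1.86.

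The factors that assemble and serve the mitochondrial ribosome also read higher for the most part. Of the 3 measured ribosomal proteins with other symbols, Ptcd3, a pentatricopeptide protein where the mRNA enters, read 8.94 with EWS-OCT4A-GFP and 8.01 with GFP alone, and Dap3 read 6.42 with EWS-OCT4A-GFP and 6.04 with GFP alone. Gadd45gip1 differed by 0.18. Of 26 assembly factors 21 were above 0, with a median of 0.30, 2 past 2-fold higher (7.69%, beside 9.31% of all genes) and 0 lower. Among genes whose higher log2 value was at least 6, a filter not independent of the differences, the median of the assembly factors was 0.10. It was 0.52 for the members. Fastkd2, an RNA-binding protein of mitochondrial RNA granules, read 7.72 with EWS-OCT4A-GFP and 6.46 with GFP alone, and Tfb1m, which methylates the small ribosomal RNA, read 7.94 with EWS-OCT4A-GFP and 6.80 with GFP alone. Ngrn differed by 0.63 and Mterf3 by 0.59.

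Of 14 translation factors 9 were above 0, with a median of 0.27, and 1 was past 2-fold higher (7.14%, beside 9.31% of all genes). This was Guf1, a homolog of a bacterial elongation factor, with 6.61 with EWS-OCT4A-GFP and 5.55 with GFP alone. Tsfm, the exchange factor of elongation factor Tu, differed by 0.69 and Lrpprc, which stabilises mitochondrial mRNAs, by 0.69. Of 16 mitochondrial aminoacyl-tRNA synthetases 14 were above 0, with a median of 0.31, led by Yars2 with 7.20 with EWS-OCT4A-GFP and 6.03 with GFP alone. Ears2 differed by 0.96. All 15 genes of mitochondrial RNA processing were above 0, with a median of 0.29, and 0 were past 2-fold higher, beside 9.31% of all genes. Angel2 (0.90) and Trmt10c (0.82), a subunit of the enzyme that cuts the front ends of mitochondrial tRNAs, differed most.

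Genes of mitochondrial DNA maintenance and transcription were more mixed, with 9 of 13 above 0 and a median of 0.47. Of the 13, 2 were past 2-fold higher (15.4%, beside 9.31% of all genes) and 1 lower (beside 11.9% of all genes). Mgme1, a mitochondrial exonuclease, read 6.79 with EWS-OCT4A-GFP and 5.42 with GFP alone, whereas Top1mt, the mitochondrial topoisomerase, read 4.57 with EWS-OCT4A-GFP and 5.77 with GFP alone. Mterf1a, of the family of mitochondrial transcription termination factors, read 4.19 with EWS-OCT4A-GFP and 2.67, under the floor, with GFP alone, and the polymerase gene Polg read 6.15 with EWS-OCT4A-GFP and 7.13 with GFP alone. Of 26 protein import genes 21 were above 0, with a median of 0.30, and 1 was past 1.5-fold lower (beside 20.6% of all genes). Past 2-fold higher were 4 (15.4%, beside 9.31% of all genes). Timm8a1, a chaperone of the intermembrane space, read 7.71 with EWS-OCT4A-GFP and 5.38 with GFP alone, a larger difference (2.33) than that of any member. Timm8b (1.11), Tomm7 (1.09) and the chaperonin gene Hspd1 (1.04) were the other 3 past 2-fold higher.

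Regulators of mitochondrial biogenesis were split. Of 12 genes 6 were above 0, with a median of 0.05 that turned to -0.02 under loess centring and was 0.16 among genes whose higher log2 value was at least 6. Ppargc1b, a coactivator of mitochondrial genes, read 3.67 with EWS-OCT4A-GFP and 5.48 with GFP alone (-1.82). Mycn read 6.04 with EWS-OCT4A-GFP and 4.97 with GFP alone (1.07), and Myc, which promotes ribosome production, read 7.37 with EWS-OCT4A-GFP and 8.33 with GFP alone (-0.96). Gabpa, which encodes the ETS factor named above, read 7.98 with EWS-OCT4A-GFP and 7.12 with GFP alone (0.86). By contrast Yy1 read 7.745 with EWS-OCT4A-GFP and 8.453 with GFP alone (-0.708). Nrf1 read 6.74 with EWS-OCT4A-GFP and 6.325 with GFP alone (0.415). A link between these factors and the members was not tested.

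The members were set beside the most similar gene families, for which no test of a difference was possible with 1 sample per line. The 79 subunits of oxidative phosphorylation encoded in the nucleus had a median difference of 0.33, as the members did, with 68 above 0 and 6 of 76 at or above the floor (7.89%) past 2-fold higher, which is no more than the 9.31% of all genes. Among genes whose higher log2 value was at least 6, a filter not independent of the differences, the median was 0.36 for these subunits. It was 0.52 for the members. The 58 cytosolic ribosomal protein genes had a median of 0.60, with 57 above 0. Of 55 at or above the floor, 9 were past 2-fold higher (16.4%, beside 9.31% of all genes) and 0 lower (beside 11.9%). Of the 9, Rpl27a (4.38 with EWS-OCT4A-GFP and 2.41 with GFP alone) and Rpl17 (5.08 with EWS-OCT4A-GFP and 3.70 with GFP alone) reached the floor only through the EWS-OCT4A-GFP sample. The spread was similar in kind, with the middle 50% at 0.13 to 0.77 for the members, 0.12 to 0.69 for the subunits of oxidative phosphorylation and 0.38 to 0.84 for the cytosolic ribosomal proteins. Probes of cytosolic ribosomal protein genes can be shared with processed pseudogenes.

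**Figure D4:**
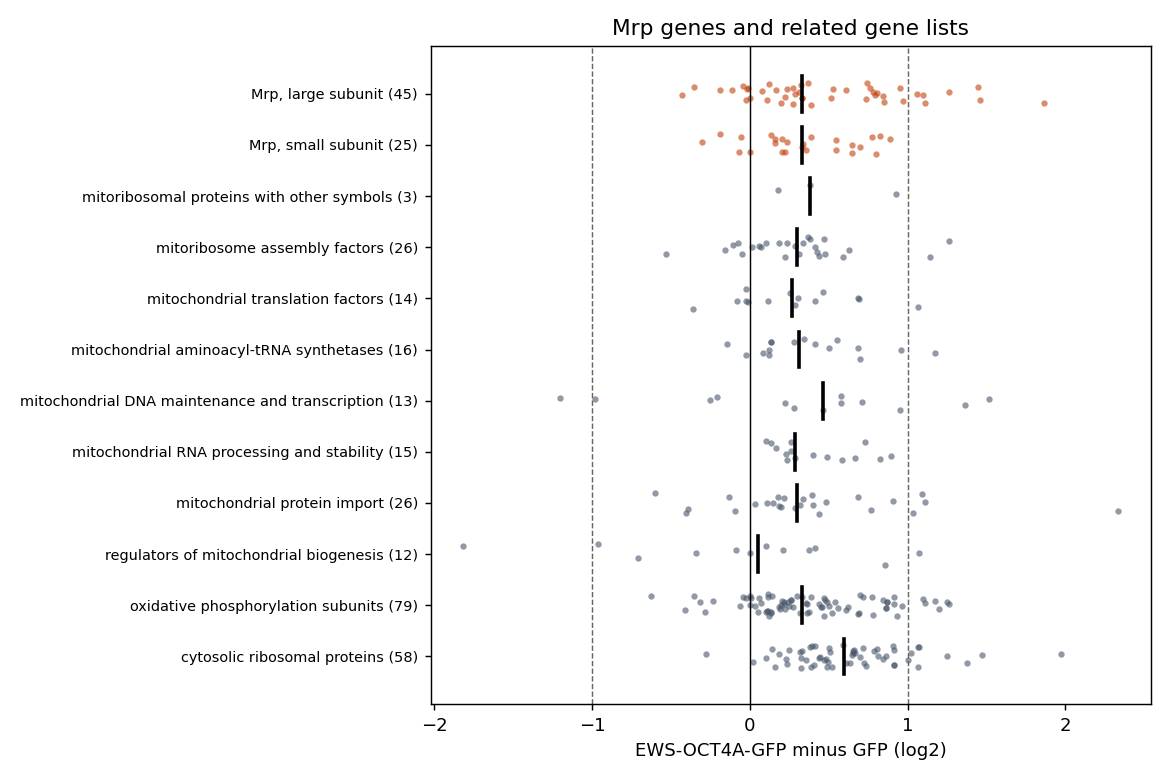
Difference (EWS-OCT4A-GFP minus GFP, log2) of each gene in the Mrp large and small subunits and 10 related lists, with the number measured in brackets, black bars at the medians and dashed lines at 2-fold. The bars of the Mrp subunits stand at 0.33, that of the regulators at 0.05 and that of the cytosolic ribosomal proteins at 0.60.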

How the data were processed

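The authors deposited 1 table with 33793 probe sets and a log2 column for each of the 2 samples. The deposited log2 values were summarised by RMA in Affymetrix Expression Console 1.1, per the submitters' processing notes, and were taken as log2 because of that method and their range of 0.618 to 13.0. RMA quantile-normalizes arrays, which would hide a shift of most transcripts. The design text speaks of duplicates, and the sources used here do not say whether a column is 1 array or a mean. Precision is limited by the number of arrays.

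Gene names came from the platform annotation (23521 with 1 symbol, 1814 with several, 8458 with none), and all 71 members matched RefSeq (GRCm38.p6) by gene ID with the same symbol. Differences are EWS-OCT4A-GFP minus GFP. The counting was tested on simulated data. Members were named by size of difference at both ends. In the related lists the genes named were mostly those with the largest differences in either direction. The low end of several lists was thus not named. The lowest were Mpv17l2 (-0.53) among assembly factors, Mtif3 (-0.36) among translation factors, Fars2 (-0.14) among synthetases and Pmpca (-0.6) among import genes. The members, lists and thresholds were chosen with earlier results of these data known, and the lists come from general knowledge. Alternatives covered the threshold, the floor, the normalization, the probe set of a gene and the unit counted. Python 3.11.15, pandas 2.3.3 and statsmodels 0.14.6 were used.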

Additional observations from a re-analysis of the deposited data

How the results depend on the processing

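With 1 sample per line no replicate could be left out. No paired analysis was possible because there is 1 sample for each line. A median was taken as moved when it shifted by at least 0.1 on the log2 scale, and a count when it differed by more than 1.5 times. Of 184 alternatives 160 stayed within these limits, but some could not leave them. Without a floor, the medians and the counts above 0 used the same genes as the main setting. Median centring moves every difference by the same amount. The array medians were 4.11 with EWS-OCT4A-GFP and 4.08 with GFP alone, so no median could move by 0.1. The 160 is thus not a measure of robustness. The 7 genes at least 2-fold higher became 25 at 1.5-fold and 1 at 3-fold. At 2-fold the count was 6 under loess centring, with the dimmest probe set per gene, and when probe sets with a second symbol were accepted. Median centring, quantile normalization and loess centring gave a median over the members of 0.30, 0.35 and 0.24. By construction fewer genes were used with a higher floor. Genes that reached it in only 1 sample were kept, so medians at a higher floor are not independent of the differences. With the floor at the 75th percentile of all values, and then at a log2 value of 6, the median was 0.45 and 0.52 for the members, 0.61 and 0.67 for the large subunit, 0.34 and 0.35 for the small subunit, 0.37 and 0.39 for proteins with a bacterial counterpart and 0.54 and 0.55 for proteins particular to mitochondrial ribosomes. At these floors it was 0.65 and 0.65 for ribosomal proteins with other symbols, 0.10 and 0.10 for assembly factors, 0.16 and 0.16 for regulators of biogenesis, 0.37 and 0.36 for oxidative phosphorylation, and at the higher floor 0.46 for aminoacyl-tRNA synthetases and 0.345 for mitochondrial DNA maintenance and transcription. Loess centring reversed the regulators to -0.019 and moved cytosolic ribosomal proteins to 0.49. For the small subunit the dimmest probe set per gene gave 0.22 and counting probe sets 0.23, and for the synthetases the mean of the probe sets and the dimmest one each gave 0.21. The cause of these moves was not tested. Accepting probe sets with a second symbol, chosen after seeing the data, gave 1 gene past 1.5-fold lower and the same 1 past 2-fold lower, Mrps6 with Slc5a3. No detection calls were used, which limits what dim probe sets show.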
